A study of Mus musculus with 2 samples.

Results

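The upstream regions of *H19* and *Rasgrf1* and the intergenic region between *Dlk1* and *Meg3* are the classical imprints that mouse sperm carries methylated. Each was taken as a fixed window on the mm9 build, the build named in the submitters' processing notes. The *H19* window was chr7:149765001-149769001, the *Dlk1*-*Meg3* window was chr12:110765001-110771001 and the *Rasgrf1* window was chr9:89764001-89776001. Each CpG in a window was used where both libraries had measured it with at least 5 calls on a line of the files, which left 18 CpGs at *H19*, 9 at *Rasgrf1* and 0 at *Dlk1*-*Meg3*. These 27 CpGs stand among 1707425 CpGs compared over the genome. No gene annotation on mm9 was used here, so CpGs are placed by position and not by exon or intron.

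Both libraries came from E14 mouse embryonic stem cells (ESCs) which carry a Rex1-dGFP knockin reporter, that is, a destabilized GFP read out from the *Rex1* locus. *Rex1* marks the naive end of the range of states that ESCs pass through in culture. Cells grown on gelatin with LIF and serum were sorted by reporter level into a *Rex1*-high and a *Rex1*-low population, and DNA methylation was assayed by reduced representation bisulfite sequencing (RRBS) in 1 library of each. RRBS reads fragments cut by MspI and TaqI after bisulfite treatment, which converts unmethylated cytosine and leaves methylated cytosine, so that each read gives a methylated or unmethylated call at each CpG it covers. Depth was similar, with 60718476 calls over 3300733 positions in the *Rex1*-high library and 61024229 over 2901301 in the *Rex1*-low library (median 13 and 12 at a position). With 1 library of 1 reporter line for each state, no difference here has a replicate check, and the tests compare these libraries and not the states in general. CpGs are not replicates either, since neighbouring CpGs share fragments.

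Genomic imprinting keeps 1 parental copy of a gene active and the other silent, through methylation that is laid down in the germline of 1 parent and kept through development. At *H19*, methylation of the paternal copy stops the insulator protein CTCF from binding, which lets the growth factor gene *Igf2* be expressed from that copy while the noncoding RNA *H19* is made from the maternal copy. Paternal methylation of the *Dlk1*-*Meg3* region goes with expression of *Dlk1* from the paternal copy and of the noncoding RNA *Meg3* from the maternal copy, and at *Rasgrf1* it goes with expression of that guanine nucleotide exchange factor from the paternal copy. A region that keeps methylation on 1 of its copies in every cell gives a level near the middle of the range when the copies are read together, as they were here. The files do not separate the parental copies.

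Both measured imprints held more methylation in the *Rex1*-low library. The median CpG of *Rasgrf1* was at 62.5% in *Rex1*-high and 92.3% in *Rex1*-low cells, and that of *H19* at 19.7% and 27.6%. Of 267 calls at *Rasgrf1*, 134 were methylated in *Rex1*-high cells (50.2%, 95% Wilson interval 44.2 to 56.1), against 141 of 166 in *Rex1*-low cells (84.9%, 78.7 to 89.6). Of 500 calls at *H19*, 173 were methylated in *Rex1*-high cells (34.6%, 30.6 to 38.9), against 210 of 402 in *Rex1*-low cells (52.2%, 47.4 to 57.1). The pooled level was thus 34.8 percentage points higher at *Rasgrf1* (95% Newcombe interval 26.1 to 42.3) and 17.6 points higher at *H19* (11.2 to 23.9). All of these intervals cover counting error only, and reads copied by PCR are not independent molecules.

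The same increase, with each CpG given equal weight, was from a mean of 51.3% to 83.8% at *Rasgrf1* (32.5 points) and from 30.7% to 44.1% at *H19* (13.4 points). Over all CpGs compared, the mean level was 39.2% in *Rex1*-high and 54.2% in *Rex1*-low cells, a mean change of 15.0 points and a median change of 9.09. At *Rasgrf1* 8 of 9 CpGs were higher in *Rex1*-low cells, 1 was equal and 0 were lower, and the median change was 33.5 points. At *H19* 15 of 18 CpGs were higher, 1 was equal and 2 were lower, and the median change was 9.88 points. Over the genome, 66.1% of CpGs were higher in *Rex1*-low cells, so that most CpGs at these imprints moved as most of the genome did.

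By Fisher's exact test on the calls of each CpG, with Benjamini-Hochberg adjustment over all CpGs compared, 2 of 18 CpGs at *H19* and 2 of 9 at *Rasgrf1* were called more methylated in *Rex1*-low cells at an adjusted p under 0.05, beside 12.6% of all CpGs. None was called less methylated, beside 0.162% of all CpGs, and none at these imprints was lower at an unadjusted p under 0.05, beside 0.537%. At an unadjusted p under 0.05, 3 CpGs of *H19* and 5 of *Rasgrf1* were higher, beside 25.4% of all CpGs. The share called at *H19*, 11.1%, was thus near that of the genome, and the 22.2% at *Rasgrf1* rests on 2 CpGs.

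Values for a CpG come in 1 or 2 lines for each library, with no strand named, and a line was kept where it held at least 5 calls. Where both lines of a CpG were kept, its level is their mean, and a level that rests on 1 line is named as such. The number of kept lines was the same in both libraries at 8 of the 18 *H19* CpGs and 3 of the 9 *Rasgrf1* CpGs, against 64.1% of CpGs over the genome. The lines of a CpG could also stand far apart. In the *Rex1*-high library the lines differed by at least 50 points at 4 of 18 CpGs at *H19* and at 3 of 9 at *Rasgrf1*, lines below 5 calls included. In the *Rex1*-low library they did so at 2 of 18 and at 1 of 8, and the median gap at *H19* was 26.4 points there against 16.0 in *Rex1*-high cells, while at *Rasgrf1* it was 16.7 against 38.6. The part of unequal lines in the changes was not tested; the levels with such CpGs left out are given beside each region.

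*Rasgrf1* was measured in a pair of stretches, 1 of 3 CpGs near 5.5 kb from the start of its window and 1 of 6 CpGs from 8.875 to 9.152 kb. Both rose. In the first, the mean level was 52.0% in *Rex1*-high and 97.2% in *Rex1*-low cells, and in the second it was 50.9% and 77.1%. The remaining sequence of the 12 kb window held 1 further position in each library, with 1 call at chr9:89767145 in *Rex1*-low cells and 2 at chr9:89769556 in *Rex1*-high cells, all unmethylated. The window values therefore describe these stretches and not the whole window.

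The largest increase among CpGs with at least 10 calls in each library was at chr9:89769489 in the first stretch. Its lines read 4 of 12 and 4 of 18 calls methylated in *Rex1*-high cells, and 9 of 9 and 25 of 30 in *Rex1*-low cells. The level went from 27.8% to 91.7%, with each *Rex1*-low line above each *Rex1*-high line (Fisher's exact test, adjusted p = 7.64e-05). All 4 of its lines were kept. Its neighbour at chr9:89769530 read 5 of 11 and 18 of 21 in *Rex1*-high cells (65.6%) and 26 of 26 on its kept line in *Rex1*-low cells, and was also called (Fisher's exact test, adjusted p = 0.0302). At chr9:89769451, the third CpG of the stretch, the *Rex1*-high lines stood at 11 of 11 and 4 of 16, and the kept *Rex1*-low line at 7 of 7. The levels there, 62.5% and 100%, did not differ past the adjusted threshold (Fisher's exact test, adjusted p = 0.154), and the lines in *Rex1*-high cells were further apart than the libraries.

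In the second stretch the change differed from CpG to CpG, and no single CpG was called. At chr9:89773115, 1 of 12 and 4 of 23 calls were methylated in *Rex1*-high cells (12.9%), against 6 of 12 on the kept line of *Rex1*-low cells (50%). At chr9:89772935, the levels were 17.5% on lines of 1 of 10 and 3 of 12, and 45.5% on 1 line of 5 of 11. These were the lowest CpGs of *Rasgrf1* in both libraries. In *Rex1*-low cells they were the only 2 of the 9 within 30% to 70%, and in *Rex1*-high cells both lay under that range. At chr9:89773000, which had the most calls of the stretch, the lines read 9 of 17 and 26 of 32 in *Rex1*-high cells (67.1%) and 10 of 10 and 11 of 13 in *Rex1*-low cells (92.3%). The *Rex1*-low lines lay above both *Rex1*-high lines there, but by as little as 26 of 32 against 11 of 13. At chr9:89772916 the lines read 2 of 9 and 14 of 23 in *Rex1*-high cells (41.5%), and the kept *Rex1*-low line read 18 of 24 (75%). At chr9:89773153 the *Rex1*-high lines stood far apart, at 11 of 11 and 6 of 18 (66.7%), and the kept *Rex1*-low line read 12 of 12 (100%). At chr9:89772876 the kept line was fully methylated in both libraries, 11 of 11 and 12 of 12, while the lines below 5 calls read 0 of 1 and 1 of 2.

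**Figure D1:**
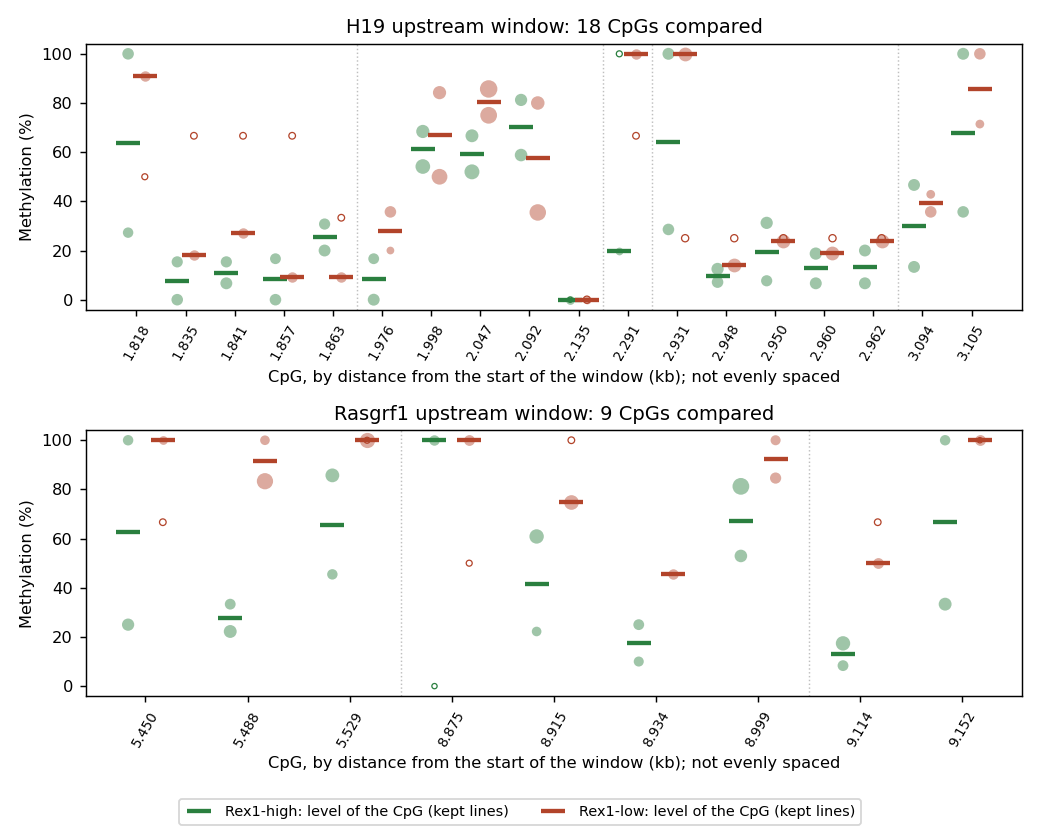
Methylation level (%, y axis) of each compared CpG at *H19* (top) and *Rasgrf1* (bottom), in order of distance from the start of its window (kb, x axis, not evenly spaced, with dotted lines at gaps over 0.1 kb). Bars are CpG levels, filled circles are kept lines, open circles are lines below 5 calls and circle area grows with calls. At *Rasgrf1* the *Rex1*-low bars lie above the *Rex1*-high bars at 8 of 9 CpGs, whereas at *H19* low and high CpGs alternate along the window in both libraries.

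At *H19*, the methylation was uneven along the window in both libraries, and a pair of runs of CpGs was low on the kept lines of both. From chr7:149766836 to chr7:149766864, 4 neighbouring CpGs read from 7.69% to 25.4% in *Rex1*-high cells and from 9.09% to 27.3% in *Rex1*-low cells. A second run of 4 CpGs, from chr7:149767949 to chr7:149767963, read from 9.82% to 19.5% and from 14.3% to 23.8%. Together they held 7 higher values and 1 lower value in *Rex1*-low cells, and none was called. The *Rex1*-low values of these 8 CpGs rest on 1 kept line each, of 11 calls in the first run and 21 in the second. The lines left out in the first run read 2 of 3 at chr7:149766836, chr7:149766842 and chr7:149766858 and 1 of 3 at chr7:149766864, and those in the second run 1 of 4 each. At chr7:149767136 no methylated call was seen, in 7 calls of *Rex1*-high and 5 of *Rex1*-low cells on the kept lines.

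Between these runs lay 3 CpGs with higher levels and the most calls of the window, and they did not move together. At chr7:149767048 the lines read 12 of 18 and 13 of 25 in *Rex1*-high cells (59.3%) and 24 of 32 and 30 of 35 in *Rex1*-low cells (80.4%), with each *Rex1*-low line above each *Rex1*-high line. This increase of 21.0 points did not pass the adjusted threshold (Fisher's exact test, p = 0.0163, adjusted p = 0.0920). At chr7:149767093 the level was 70.04% in *Rex1*-high cells, on lines of 13 of 16 and 10 of 17, and 57.7% in *Rex1*-low cells, on lines of 16 of 20 and 11 of 31 (Fisher's exact test, adjusted p = 0.440). There the lines of the libraries overlapped, as they did at chr7:149766999, where the levels were 61.3% and 67.1%. Within 22 bp, from chr7:149766977 to chr7:149766999, the level in *Rex1*-high cells stepped from 8.33% to 61.3%, and in *Rex1*-low cells from 27.9% to 67.1%.

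Both CpGs called at *H19* had a line with every call methylated. At chr7:149767932 the lines read 4 of 14 and 15 of 15 in *Rex1*-high cells (64.3%), against 21 of 21 on the kept line in *Rex1*-low cells, with the other line at 1 of 4 (Fisher's exact test, adjusted p = 0.0293). Lines of the 2 libraries that resemble each other are thus present at both ends of the range, and the level of *Rex1*-low cells rests on the high one alone. At chr7:149767292, named here because it shared the highest level in *Rex1*-low cells and was the most changed, 1 of 5 calls was methylated on the kept line in *Rex1*-high cells and 11 of 11 in *Rex1*-low cells (Fisher's exact test, adjusted p = 0.0289). Its lines below 5 calls read 2 of 2 and 2 of 3. With the lines of each CpG added together before the minimum was applied, which is the minimum per CpG that the study's methods state, 0 of 18 *H19* CpGs were called and 2 of 9 at *Rasgrf1*, beside 10.6% of all CpGs under that choice.

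Other *H19* CpGs with a fully methylated line changed less firmly. At chr7:149766819 the lines read 3 of 11 and 14 of 14 in *Rex1*-high cells (63.6%), and the kept line read 10 of 11 in *Rex1*-low cells (90.9%, Fisher's exact test, adjusted p = 0.529). At chr7:149768106 both lines were kept in both libraries, at 5 of 14 and 15 of 15 in *Rex1*-high and 5 of 7 and 14 of 14 in *Rex1*-low cells (67.9% and 85.7%). The largest fall was at chr7:149766864, from 25.4% on lines of 4 of 13 and 3 of 15 to 9.09% on 1 line of 1 of 11 (Fisher's exact test, adjusted p = 0.771). Its neighbour chr7:149766858 read 8.33% and 9.09%.

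Without the CpGs whose lines differed by at least 50 points, *H19* had 13 CpGs with a mean of 25.3% in *Rex1*-high and 31.4% in *Rex1*-low cells, a change of 6.11 points beside 13.5 over the genome. With the CpGs of unequal line numbers left out instead, its 8 CpGs gave 39.6% and 57.3%, a change of 17.7 points beside 11.5 over the genome. *Rasgrf1* changed by 37.0 points on 6 CpGs under the first of these choices and by 29.7 points on 3 CpGs under the second. The increase at *Rasgrf1* was above the genome mean under both, while that at *H19* was below it under one and above it under the other. These choices were made after the data were seen.

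**Figure D2:**
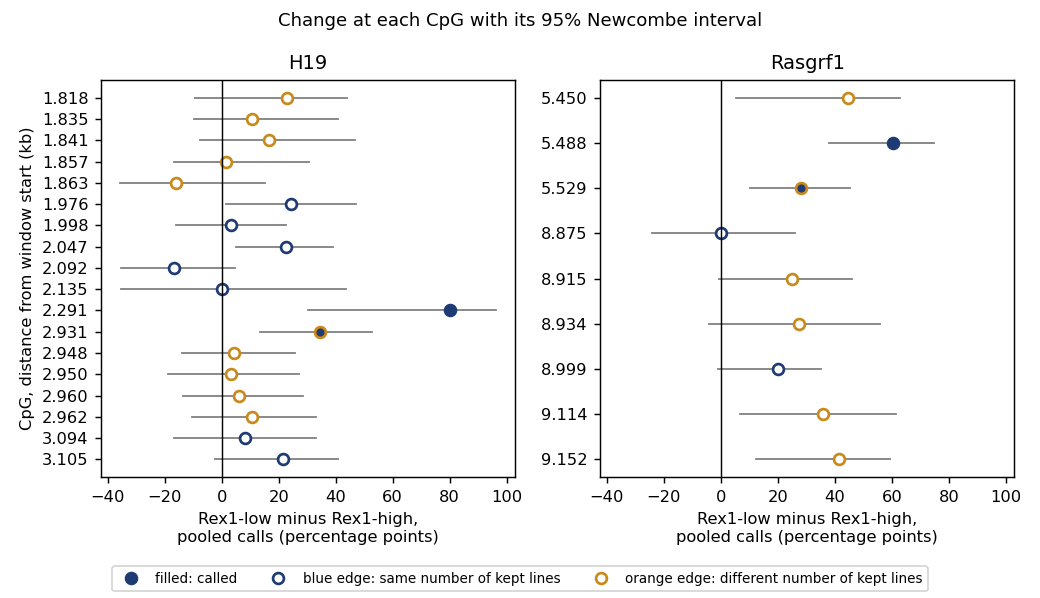
Difference in pooled methylation, *Rex1*-low minus *Rex1*-high cells (percentage points, x axis), at each compared CpG of *H19* and *Rasgrf1* by distance from the window start (kb, y axis), with 95% Newcombe intervals for counting error. Filled points were called, and orange edges mark CpGs with different numbers of kept lines; 2 points are filled in each panel, and most *H19* intervals cross 0.

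In windows of 2500 bp, which gather more calls, both imprints were called more methylated in *Rex1*-low cells. A window was called at an adjusted p under 0.05 with a change in mean level of at least 10 points. Both *H19* windows and both *Rasgrf1* windows with at least 3 CpGs were called, beside 75.5% of the 162599 windows tested over the genome, and none was called less methylated, beside 0.0326%. A call of this kind was the usual outcome for a window in these libraries and does not set the imprints apart. With at least 10 calls per line, 1 window was called at each imprint, and with lines merged 1 was called at *H19*. At 10 calls the first *Rasgrf1* window fell below the minimum of 3 CpGs, as chr9:89769451 had 7 calls on its deeper *Rex1*-low line. That window was therefore no longer tested. The share of all windows called under these choices is not given here.

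At *H19*, 108 of 292 calls were methylated in *Rex1*-high and 145 of 255 in *Rex1*-low cells in chr7:149765001-149767500, which held 11 CpGs (Fisher's exact test, adjusted p = 1.02e-05). In the next window, chr7:149767501-149770000, which reaches 1 kb past the imprint and held 7 CpGs, the counts were 65 of 208 and 65 of 147 (adjusted p = 0.0188 by Fisher's exact test). Mean CpG levels rose from 30.5% to 44.3% and from 31.1% to 43.7%. The 95% Newcombe intervals of the pooled differences, 11.5 to 27.9 and 2.77 to 23.0 points, overlapped. At *Rasgrf1*, chr9:89767501-89770000 had 46 of 89 and 67 of 72 calls methylated (Fisher's exact test, adjusted p = 2.06e-08), and chr9:89772501-89775000 had 88 of 178 and 74 of 94 (adjusted p = 7.47e-06). The mean level of the first *Rasgrf1* window changed by 45.3 points and that of the second by 26.2 points. The 95% Newcombe intervals of their pooled differences, which is another measure, were 28.3 to 52.3 and 17.5 to 39.4 and overlapped. Overlap of intervals, here and for the *H19* windows, the bins and the flanks, is not a test of whether changes were alike. In bins of 1 kb with at least 3 CpGs, the change at *H19* was 9.12 points from 1 to 2 kb and 16.7 points from 2 to 3 kb, and at *Rasgrf1* it was 45.3 points from 5 to 6 kb and 21.7 points from 8 to 9 kb. With calls pooled, the *H19* bins changed by 14.9 and 18.5 points, with overlapping 95% Newcombe intervals of 4.13 to 25.5 and 9.60 to 27.0.

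CpGs in the middle of the range, where an imprint methylated on 1 copy would lie, were counted from 30% to 70%, and this share was not stable. At *Rasgrf1*, 5 of 9 CpGs (55.6%) lay within 30% to 70% in *Rex1*-high cells, with 3 under it and 1 above it. In *Rex1*-low cells 2 of 9 did (22.2%), with 0 under it and 7 above it. At *H19*, 6 of 18 CpGs (33.3%) lay within this range in *Rex1*-high cells, with 11 under it, and 3 of 18 (16.7%) did so in *Rex1*-low cells, with 10 under it and 5 above it. From 40% to 60% the share at *Rasgrf1* turned, from 11.1% in *Rex1*-high to 22.2% in *Rex1*-low cells, and at *H19* it was 5.56% in both. The *H19* share was also equal in both libraries with every line used (38.9%) and without the CpGs whose lines differed by at least 50 points (23.1%). Over the genome, 36.7% of CpGs lay within 30% to 70% in *Rex1*-high and 16.0% in *Rex1*-low cells. At the minimum of 5 calls, the pooled level of 52.2% at *H19* in *Rex1*-low cells thus came from 10 CpGs under the middle range, 3 within it and 5 above it. These are counts of CpGs, whereas the pooled level weights each CpG by its calls. Of the 4 pooled levels, those of *Rasgrf1* in *Rex1*-high cells (50.2%) and of *H19* in *Rex1*-low cells (52.2%) were nearest to 50%.

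Because 66.1% of CpGs over the genome were higher in *Rex1*-low cells, the sequence around each imprint was read in the same way. No annotation was used, so other imprinted sequence that these flanks may hold was not set apart. In the 20 kb on either side of *Rasgrf1*, 18 CpGs had a mean of 61.5% in *Rex1*-high and 89.4% in *Rex1*-low cells, a change of 27.9 points, and 1 of them was called more methylated, beside 12.6% of all CpGs. The pooled change there was 28.1 points (95% Newcombe interval 21.8 to 33.7), which overlaps the 26.1 to 42.3 of the *Rasgrf1* window. The window changed by 4.67 points more than its flanks, but by 20.3 points more than flanks of 10 kb and 18.8 points more than flanks of 50 kb. It changed by 0.914 points more with at least 10 calls per line and by 2.52 points more without the CpGs whose lines differed by at least 50 points. This contrast was thus not stable in size. The pooled level of the imprint was 50.2% beside 63.7% in the flanks of *Rex1*-high cells, where the 95% Wilson intervals, 44.2 to 56.1 and 58.8 to 68.2, did not overlap. In *Rex1*-low cells it was 84.9% beside 91.7%, and the intervals, 78.7 to 89.6 and 87.5 to 94.6, overlapped.

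Around *H19*, 53 CpGs had means of 47.2% and 70.5%, a change of 23.4 points, and 10 were called more methylated, beside 12.6% of all CpGs. Of these CpGs, 45 lay before the window and changed by a mean of 21.5 points, and 8 lay after it and changed by 33.6 points. The change of the *H19* window minus that of its flanks was -9.96 points when CpGs had equal weight. It was -3.75 with flanks of 50 kb, -5.02 with every line used, -3.47 with at least 20 calls per line, -16.8 without the CpGs whose lines differed by at least 50 points and 0.473 with the CpGs of unequal line numbers left out. With calls pooled, window and flanks changed alike, by 17.6 points in each (95% Newcombe intervals 11.2 to 23.9 and 13.7 to 21.4). The *H19* window was less methylated than its flanks in both libraries, at a pooled 34.6% beside 46.6% and 52.2% beside 64.2%. The 95% Wilson intervals did not overlap in *Rex1*-high cells (30.6 to 38.9 and 44.0 to 49.2) or in *Rex1*-low cells (47.4 to 57.1 and 61.3 to 66.9).

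The *Dlk1*-*Meg3* window was hardly covered. It held 6 calls in *Rex1*-high and 19 calls in *Rex1*-low cells, on 6 positions in all. In *Rex1*-high cells no line reached 5 calls; the deepest, at chr12:110767943, read 2 of 2. In *Rex1*-low cells 2 lines did, with 2 of 6 calls methylated at chr12:110767943 and 6 of 6 at chr12:110767969. Whether this imprint differed between the libraries was not detectable at this depth, and no level is given for it. The sequence around it was covered, and there 47 CpGs had means of 47.1% and 70.9% in *Rex1*-high and *Rex1*-low cells, with 14 of them called more and 0 less methylated, beside 12.6% and 0.162% of all CpGs. The pooled change in these flanks was 18.9 points (95% Newcombe interval 15.5 to 22.3).

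**Figure D3:**
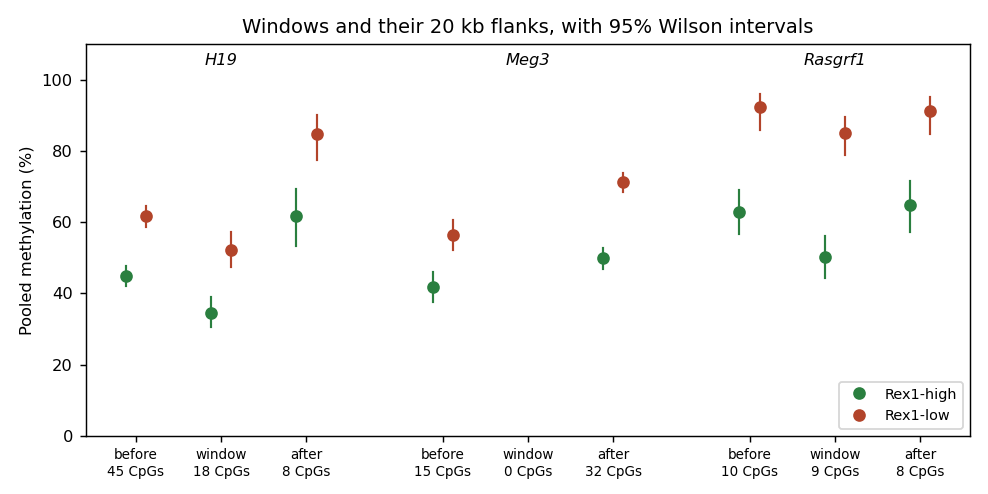
Pooled methylation (%, y axis) of each imprint window and of the 20 kb before and after it, in *Rex1*-high (green) and *Rex1*-low (red) cells, with 95% Wilson intervals for counting error and the number of CpGs compared under each place. The *Rex1*-low value is the higher one in all 8 places with CpGs, and the *Meg3* window has none.

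Against windows of its own length over the genome, *Rasgrf1* lay in the upper part of the range of changes and *H19* in the lower part. Among 106155 windows of 12 kb with at least 3 CpGs, the median change in mean level was 23.0 points (quartiles 15.4 and 29.0), and the *Rasgrf1* change of 32.5 points was at percentile 85.5. Among 149567 windows of 4 kb the median change was 23.4 points (15.1 and 30.3), and the *H19* change of 13.4 points was at percentile 21.8. RRBS windows with many CpGs changed less, however. Among the 17179 windows of 4 kb with at least as many CpGs as *H19* the median change was 3.51 points (1.33 and 10.3), and there *H19* was at percentile 78.6. For *Rasgrf1* the same restriction left 47389 windows with a median change of 21.2 points, and placed it at percentile 92.4. With pooled calls in place of mean levels, the percentiles were 90.5 for *Rasgrf1* and 27.6 for *H19* among all windows, and 95.9 and 82.0 among those as rich in CpGs.

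The levels were ranked in the same way. In *Rex1*-high cells *H19* stood at percentile 13.5 of levels among all windows of 4 kb but at percentile 79.4 among those as rich in CpGs, where the median level was 16.7%. In *Rex1*-low cells these percentiles were 12.99 and 79.0. *Rasgrf1* stood at percentile 30.6 of its own length in *Rex1*-high cells and 43.1 in *Rex1*-low cells, and at percentiles 47.4 and 61.3 among windows as rich in CpGs. The rank of the level thus depended on the windows used: it crossed the median in both libraries at *H19* and in *Rex1*-low cells at *Rasgrf1*. The change at *Rasgrf1* was above the median in either set, and that at *H19* in 1 of them.

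**Figure D4:**
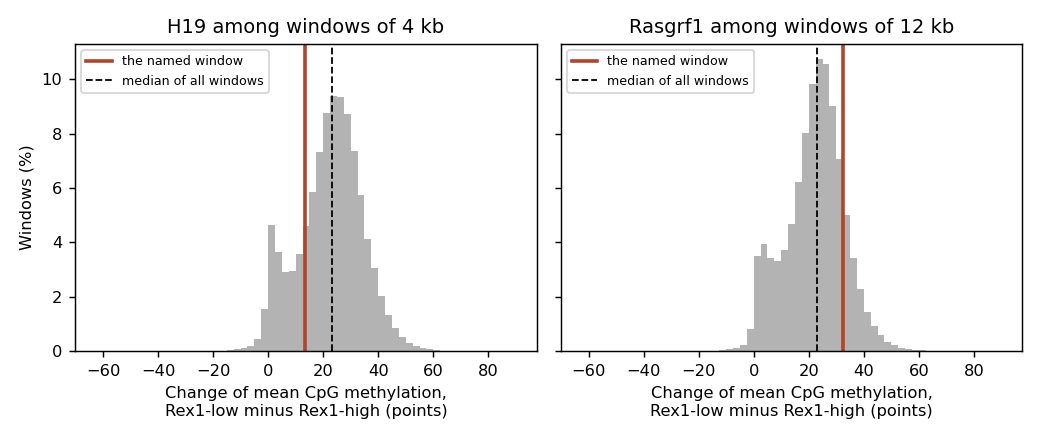
Share of windows over the genome (%, y axis) by change in mean CpG methylation, *Rex1*-low minus *Rex1*-high cells (percentage points, x axis, bins of 2.5 points), for windows of 4 kb (left) and 12 kb (right). The red line marks *H19*, at 13.4 points, and *Rasgrf1*, at 32.5 points; the dashed line marks the median of all windows, 23.4 and 23.0 points.

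The CpGs of the imprints can also be read beside CpGs that started from the same level. Of the *H19* CpGs, 9 were at 0% to 20% in *Rex1*-high cells and had a median change of 6.34 points, where the genome median for this class was 0.00. The 3 at 20% to 40% had a median change of 9.29 points, where the genome median was 43.5, and the 5 at 60% to 80% had 17.9 points, where it was 22.2. The single *H19* CpG at 40% to 60% changed by 21.0 points. At *Rasgrf1* the 2 CpGs at 0% to 20% changed by a median of 32.5 points, the single CpG at 20% to 40% by 63.9 points, the single CpG at 40% to 60% by 33.5 points, where the genome median was 27.8, and the 4 at 60% to 80% by a median of 33.9 points. Each of these *Rasgrf1* values lay above the genome median of its class; the ninth CpG, at 100% in both libraries, could not rise. The *H19* medians lay above it in the lowest class and below it in the others, but the 3 CpGs at 20% to 40% ranged from -16.3 to 80 points, and 2 of the 5 at 60% to 80% changed by more than the genome median of that class, by 27.3 and 35.7 points. With 1 to 9 CpGs in a class, these are descriptions of the CpGs measured.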

How the data were processed

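RRBS libraries of TaqI and MspI fragments were prepared and sequenced by Zymo Research, and the data were processed with Bismark and Galaxy. Bismark 0.7 and mm9 are named in the submitters' processing notes; trimming and strand handling are not given in the sources used here. The deposited values are methylated and all calls per line and a score of 1000 times their ratio, which was not used. Lines of 1 call are present, so the 5-read minimum that the study set per CpG was not yet in force; here it was applied to each line, and to merged lines as an alternative. Fisher's exact tests (two-sided) were run on summed calls and adjusted by Benjamini-Hochberg over 1707425 CpGs or 162599 windows. They were also run on simulated calls, drawn independently at each CpG with no differing lines or PCR copies. That run cannot show how the tests behave on these libraries. CpGs were named as the 3 largest increases, the 3 smallest increases or largest decreases and the 2 most covered with at least 10 calls in each library, plus extremes; others were chosen after their values were seen. The regions, lists and tests were chosen with earlier results of these data known. Alternatives varied read minimum, lines, averaging, depth, thresholds, window grid, test and flanks. Software was SciPy 1.17.1, numba 0.67.0, pandas 2.3.3, NumPy 2.4.6 and matplotlib 3.10.9 in Python 3.11.15.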

Additional observations from a re-analysis of the deposited data

How the results depend on the processing

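Of 132 values recomputed under alternatives, 103 stayed within their limits, 27 moved and 2 reversed. The limits were wide. The *H19* flank contrast of -9.96 points still counted as within them at -3.47 and -16.8 points, and the *H19* middle range share in *Rex1*-low cells, 16.7%, did so at 38.9%. The 103 include the counts called less methylated, as no CpG or window was called less methylated under any alternative. The change of mean level stayed positive, from 6.11 to 17.7 points at *H19* and from 14.2 to 37.0 at *Rasgrf1*. The lowest values were on 13 *H19* CpGs without lines 50 points apart and on 2 *Rasgrf1* CpGs at 20 calls per line. The 2 *H19* CpGs called became 0 at 1 call per line (genome share called 7.56%), with lines merged (10.6%), with the deeper library thinned (6.73%), at an adjusted p under 0.01 (5.28%) and without lines 50 points apart (0 of 13, 11.8%). They became 1 of 16 at 10 calls (19.3%), 1 of 2 at 20 calls (19.3%) and 1 of 8 with equal line numbers (11.7%). The 2 at *Rasgrf1* became 3 of 8 at 10 calls, 0 of 2 at 20 calls, 1 of 3 with equal line numbers, and 1 of 9 with thinning and at an adjusted p under 0.01. Windows called fell from 2 to 1 at *H19* at 10 calls and with merged lines. At *Rasgrf1* 1 window was called at 10 calls, where the other fell below the minimum of 3 CpGs and was not tested. The share of all windows called under these choices is not given here. The *H19* contrast with its flanks, -9.96 points, became 0.473 with equal line numbers and 0.0552 with pooled calls; the *Rasgrf1* contrast, 4.67, became 17.1 at 1 call per line, 20.3 with flanks of 10 kb, 18.8 with flanks of 50 kb, 0.914 at 10 calls and 2.52 without lines 50 points apart. The middle range share at 20 calls was 100% of 2 CpGs in *Rex1*-high and 50% in *Rex1*-low cells at *H19*, and 0% in *Rex1*-low cells at *Rasgrf1*, as with equal line numbers. From 40% to 60% it was 5.56% in both libraries at *H19* and 11.1% in *Rex1*-high against 22.2% in *Rex1*-low cells at *Rasgrf1*, a turned direction. Fewer CpGs enter at higher minimums; other causes were not tested. No paired analysis was possible because each state has 1 library. Choices on line numbers, line gaps and pooled flanks were added after the data were seen.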
